A study of Mus musculus with 5 samples.

Results

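The insulin-like growth factor (IGF) ligands, their receptors and their binding proteins were followed through the cell types of a mouse mammary tumour: Igf1, Igf2, Igf1r, Igf2r, Igfbp2, Igfbp3, Igfbp4, Igfbp5, Igfbp6 and Igfbp7. These 10 genes were taken by name, out of 41028 genes in the deposited count matrices, by a rule with no threshold on a measured value. The tumours came from PyMT mice, in which the polyoma virus middle T oncogene is a transgene that drives tumours of the mammary epithelium. They were digested to single cells, enriched for viable cells, and profiled by 3' single-cell RNA sequencing on either the 10x Genomics Chromium (v2 chemistry) or the BD Rhapsody whole-transcriptome platform. Both kinds of library count unique molecular identifiers (UMIs), 1 per captured mRNA molecule.

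There were 5 libraries, all from tumours carrying the transgene, with no normal gland among them. Fresh 10x 1 and fresh 10x 2 were fresh digests run on 10x. The stored 10x library was a digest titled as held for 24 h, kept overnight in the cold (4 °C) and checked to have lost at least 20% of its viability, to stand for a poor sample. BD 1 was a fresh digest run on BD Rhapsody. BD 2 is titled fresh as well, but its files are named for 24 h, so it was left out of every platform and storage comparison and its values are printed on their own. The labels give no animal, age or sex for any library, so the p-values measure the spread between these libraries, which may be technical.

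IGF-1 and IGF-2 are secreted growth factors that signal through the IGF-1 receptor, a tyrosine kinase encoded by Igf1r. The receptor encoded by Igf2r, which also carries mannose 6-phosphate-tagged enzymes to lysosomes, takes up IGF-2 and delivers it for degradation. The IGF-binding proteins hold the ligands outside the cell, lengthening their life or keeping them from the receptor, and in the mammary gland IGFBP-5 is best known as a protein that rises when the gland regresses after lactation.

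The members lie on 7 chromosomes of the mouse genome (GRCm38.p6, RefSeq positions). Igfbp2 (chr1:72824480-72852474, plus strand) and Igfbp5 (chr1:72858065-72874865, minus strand) sit tail to tail with 5.59 kb between their ends. Igfbp3 (chr11:7206086-7215498, minus strand) lies 3.54 kb from Igfbp1, which had 20 UMIs in all libraries. Igf1 is at chr10:87858265-87937047, Igf1r at chr7:67952257-68233668, Igfbp4 at chr11:99040005-99052655 and Igfbp6 at chr15:102144186-102149512, all on the plus strand. Igf2 at chr7:142650768-142666816, Igf2r at chr17:12682406-12769706 and Igfbp7 at chr5:77349240-77408045 are on the minus strand.

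Of the 14 RefSeq promoters found for the members, 3 are shown for a TATA-like run within 60 bases of the start. They belong to binding proteins that are led by epithelial, fibroblast and endothelial cells in turn, as described below. Each run was picked for the gene that holds it, and other TATA-like strings were not counted. The starts are those of the RefSeq promoter table, and for Igfbp4 and Igfbp3 they lie inside the gene span given above. Each is shown as the 60 bases before that start, 5′ to 3′ on the gene's strand, with the run in capitals.
Igfbp5, chr1:72874866-72874925, minus strand: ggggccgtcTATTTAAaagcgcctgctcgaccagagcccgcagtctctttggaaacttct
Igfbp4, chr11:99041184-99041243, plus strand: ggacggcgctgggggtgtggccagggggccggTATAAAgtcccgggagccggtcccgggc
Igfbp3, chr11:7213924-7213983, minus strand: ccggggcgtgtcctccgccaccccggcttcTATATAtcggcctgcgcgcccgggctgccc
The first base of the run lies 51, 28 and 30 bases before the start, respectively. On both strands of the same window, TATTTAA occurs in 0.9% of 32851 promoters, TATAAA in 3.92% and TATATA in 1.56%. Each run was found in 1 of the 14 member promoters, and a match of letters is a description only.

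The libraries held 15958 cells in all, up to 4186 each, with a median of 8926 to 12474 UMIs per cell, 222498656 UMIs in all. The median mitochondrial share was 6.14% to 7.17% on 10x, 15.2% in BD 1 and 19.8% in BD 2. Cells were clustered without the members and without 36 further IGF pathway genes, and named from marker genes. Epithelial-like cells were the large majority (11047 cells, 70.1% to 82.5% of named cells per library), followed by 1190 fibroblast-like, 795 macrophage-like, 493 T-like, 421 endothelial-like and 175 mural-like cells (pericytes and smooth muscle). The T-like class includes 122 cells that carried natural killer markers, and a further 41 neutrophil-like cells were too few to fit. In each class all markers were highest in their own class except Cdh1 among the 10 epithelial markers. Clusters holding 1436 cells stayed unnamed. No 2 libraries shared a barcode with identical counts, and at most 24 barcodes matched.

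The first question was which cell class carries each gene. UMIs were summed per library and class where at least 20 cells were present, which gave 27 sums. Levels are UMIs per 10000 UMIs of that class, in the order fresh 10x 1, fresh 10x 2, stored 10x, BD 1, BD 2. Endothelial-like sums are missing for BD 2 and mural-like sums for both BD libraries. All 9 members with enough counts to test differed between classes (edgeR's quasi-likelihood test with library as a block, Benjamini-Hochberg adjusted). So did 92.0% of all 11667 genes tested, so the call itself sets no member apart. The sizes and the order of the classes are what follows.

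Igf1 was a gene of the fibroblast-like cells. It stood there at 5.99, 6.09, 5.78, 9.0 and 10.1 UMIs per 10000 (mean 7.40 ± 2.02, SD, n = 5). The next class was endothelial-like, with 0.247, 0.270, 0.267 and 0.213. Every fibroblast-like value was above every other one, and the difference from the endothelial-like class was 4.92 ± 0.31 (log2 ± SE, adjusted p = 1.12e-11, edgeR's quasi-likelihood test), beside 39.3% of all genes that passed for their highest class against the next. With cells thinned to 2000 UMIs, 50.6% to 60.6% of fibroblast-like cells had an Igf1 UMI, against 0.277% to 0.380% of epithelial-like cells. At full depth the median share was 84.1%.

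Low Igf1 outside the fibroblast-like class was set beside the RNA that leaks between droplets or wells. In the endothelial-like cells Igf1 reached 2.37% to 4.62% of its fibroblast-like level, above every one of the 7 fibroblast markers in 4 of 4 libraries. In macrophage-like cells, which make Igf1 in many tissues, it reached 0.919% to 2.11%, above every fibroblast marker in 4 of 5 libraries. In epithelial-like cells it was 0.127% to 0.335%, within the range of the fibroblast markers in 5 of 5, so Igf1 made by these cells could not be told apart from leaked RNA at this level.

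Igf2, the fetal growth factor, was next to undetected. Only 4 UMIs were counted among 222498656, in 4 cells, with at most 1 in any library. H19, the RNA gene 72.62 kb from it that shares its imprinted control region and is expressed from the other parental copy, had 4202 UMIs. H19 was highest in fibroblast-like cells, at 0.868, 0.893, 0.382, 3.16 and 1.65 UMIs per 10000, with both BD libraries above all 10x libraries. It exceeded the mean of the other classes there by 6.72 ± 0.43 (log2, adjusted p = 4.36e-11, edgeR's quasi-likelihood test). Igf2 was not tested.

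Igf1r, the signalling receptor, was at its lowest in the tumour epithelium. Mural-like cells held 0.819, 0.850 and 0.624 UMIs per 10000, and fibroblast-like cells 0.548, 0.535, 0.50, 0.478 and 0.391. Endothelial-like cells held 0.523, 0.622, 0.392 and 0.341. Every mural-like value lay above the fibroblast-like and endothelial-like ones, which overlapped each other. Mural-like against fibroblast-like cells differed by 0.53 ± 0.25 (log2, adjusted p = 0.104, edgeR's quasi-likelihood test), which did not pass.

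The epithelial-like level of Igf1r was 0.0559, 0.0527, 0.0702, 0.0729 and 0.0676. It lay below the stromal classes in every library and was 2.30 lower on the log2 scale than the mean of the other classes (log2 difference -2.30 ± 0.14, adjusted p = 2.78e-14, edgeR's quasi-likelihood test). T-like cells stood between, at 0.168 to 0.252. Macrophage-like cells held 0.0560 to 0.164 and were also below the mean of the others (log2 difference -1.07 ± 0.19, adjusted p = 3.14e-05, same test). At 2000 UMIs per cell, 10.2% to 17.8% of mural-like cells and 0.995% to 1.62% of epithelial-like cells had an Igf1r UMI. The neutrophil-like cells, pooled over libraries, gave 23 Igf1r UMIs in 10 of 41 cells, a level of 1.43 UMIs per 10000 (exact 95% interval 0.905 to 2.14), above the pooled mural-like level of 0.821.

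Igf2r was spread across the classes, except for a gap in macrophages. Fibroblast-like cells stood at 0.579, 0.556, 0.715, 1.04 and 0.955, mural-like cells at 0.637, 0.691 and 0.803, and epithelial-like cells at 0.421, 0.438, 0.413, 0.692 and 0.680. Macrophage-like cells held 0.0276, 0.123, 0.0874, 0.204 and 0.141, below every other class in each library. Their difference from the mean of the other classes was -2.26 ± 0.15 (log2, adjusted p = 2.91e-13, edgeR's quasi-likelihood test). The fibroblast-like and mural-like classes differed by 0.02 ± 0.21 (adjusted p = 0.970, same test). Igf2r overlaps Airn, an antisense RNA on the other strand (chr17:12741311-12859884) with 2029 UMIs. The sources used here do not say whether counting used strand, and reads of the 2 genes may not be fully separated.

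Among the fitted classes, Igfbp2 was highest in fibroblast-like cells, at levels that varied widely between libraries. Its fibroblast-like level was 9.38 and 8.66 in the fresh 10x libraries, then 1.64 in the stored library, 1.06 with BD 1 and 0.421 with BD 2, with no overlap between the fresh 10x pair and the rest. Epithelial-like cells were next at 0.126, 0.173, 0.118, 0.0536 and 0.0523, and the difference was 4.61 ± 0.40 (log2, adjusted p = 1.63e-08, edgeR's quasi-likelihood test). The epithelial-like level was 1.35% to 12.4% of the fibroblast-like one, above every fibroblast marker in 5 of 5 libraries. At 2000 UMIs per cell, 43.9%, 34.9%, 7.88%, 9.25% and 5.63% of fibroblast-like cells had an Igfbp2 UMI, in the library order above. An unnamed cluster of 84 cells, 47 of them from stored 10x, also had Igfbp2 among its 10 leading genes. It was led by Meg3 and Otor, had a median of 1678 UMIs, and took no part in the class comparison.

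Igfbp3, the main carrier of IGFs in serum, marked endothelial-like cells. These held 27.1, 31.5, 15.9 and 9.71 UMIs per 10000 (mean 21.1 ± 10.0, SD, n = 4). Fibroblast-like cells were next at 3.15, 3.34, 0.568, 0.454 and 0.264, and the difference was 3.70 ± 0.37 (log2, adjusted p = 7.69e-07, edgeR's quasi-likelihood test). The lowest endothelial-like value was above the highest fibroblast-like one. Not 1 Igfbp3 UMI was found in the 493 T-like cells.

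Igfbp4 was led by fibroblast-like cells, at 27.5, 27.9, 18.7, 33.9 and 29.9 (mean 27.6 ± 5.60, SD, n = 5). Endothelial-like cells followed at 7.93, 7.10, 4.96 and 9.66, a difference of 2.02 ± 0.23 (log2, adjusted p = 2.45e-07, edgeR's quasi-likelihood test), and the classes did not overlap. Mural-like cells held 1.36 to 2.27 and epithelial-like cells 0.277 to 0.381. By UMIs, Igfbp4 ranked between 21 and 84 among all genes of the fibroblast-like cells.

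Igfbp6, which binds IGF-2 in preference to IGF-1, had the widest gap between its highest class and the next among the fitted classes. Fibroblast-like cells held 4.94, 6.66, 10.7, 5.47 and 6.37, with the stored library highest. Endothelial-like cells held 0.0291, 0.0207, 0.314 and 0, and the difference was 6.91 ± 0.48 (log2, adjusted p = 5.30e-10, edgeR's quasi-likelihood test). The 41 neutrophil-like cells, which were not fitted, came nearer to the fibroblast-like level. They gave 35 Igfbp6 UMIs in 24 cells, a pooled level of 2.17 UMIs per 10000 against 6.77 in pooled fibroblast-like cells. Igf1 and Igfbp4 were at 0 UMIs in the neutrophil-like cells.

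Igfbp7, a protein of vascular basement membrane that binds IGFs weakly, was shared by the 3 stromal classes. Endothelial-like cells held 104, 82.7, 64.0 and 103 UMIs per 10000, mural-like cells 80.9, 68.3 and 59.9, and fibroblast-like cells 41.0, 30.1, 21.8, 33.6 and 30.3. Endothelial-like and mural-like cells overlapped and differed by 0.34 ± 0.23 (log2, adjusted p = 0.286, edgeR's quasi-likelihood test). In endothelial-like cells Igfbp7 ranked between 5 and 9 among all genes, with 0.640% to 1.04% of UMIs. At 2000 UMIs per cell it was found in 97.7% to 99.8% of endothelial-like and 1.76% to 3.76% of macrophage-like cells.

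Igfbp5 was the only member led by the epithelium, and the most abundant member by UMIs, with 1028330. Epithelial-like cells held 44.8, 38.4, 46.7, 66.1 and 61.5 UMIs per 10000 (mean 51.5 ± 11.7, SD, n = 5), with both BD libraries above all 10x libraries. It ranked between 13 and 35 among their genes. The difference from fibroblast-like cells was 2.51 ± 0.43 (log2, adjusted p = 1.09e-04, edgeR's quasi-likelihood test). At 2000 UMIs per cell, 88.4% to 93.0% of epithelial-like cells had a UMI.

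**Figure D1:**
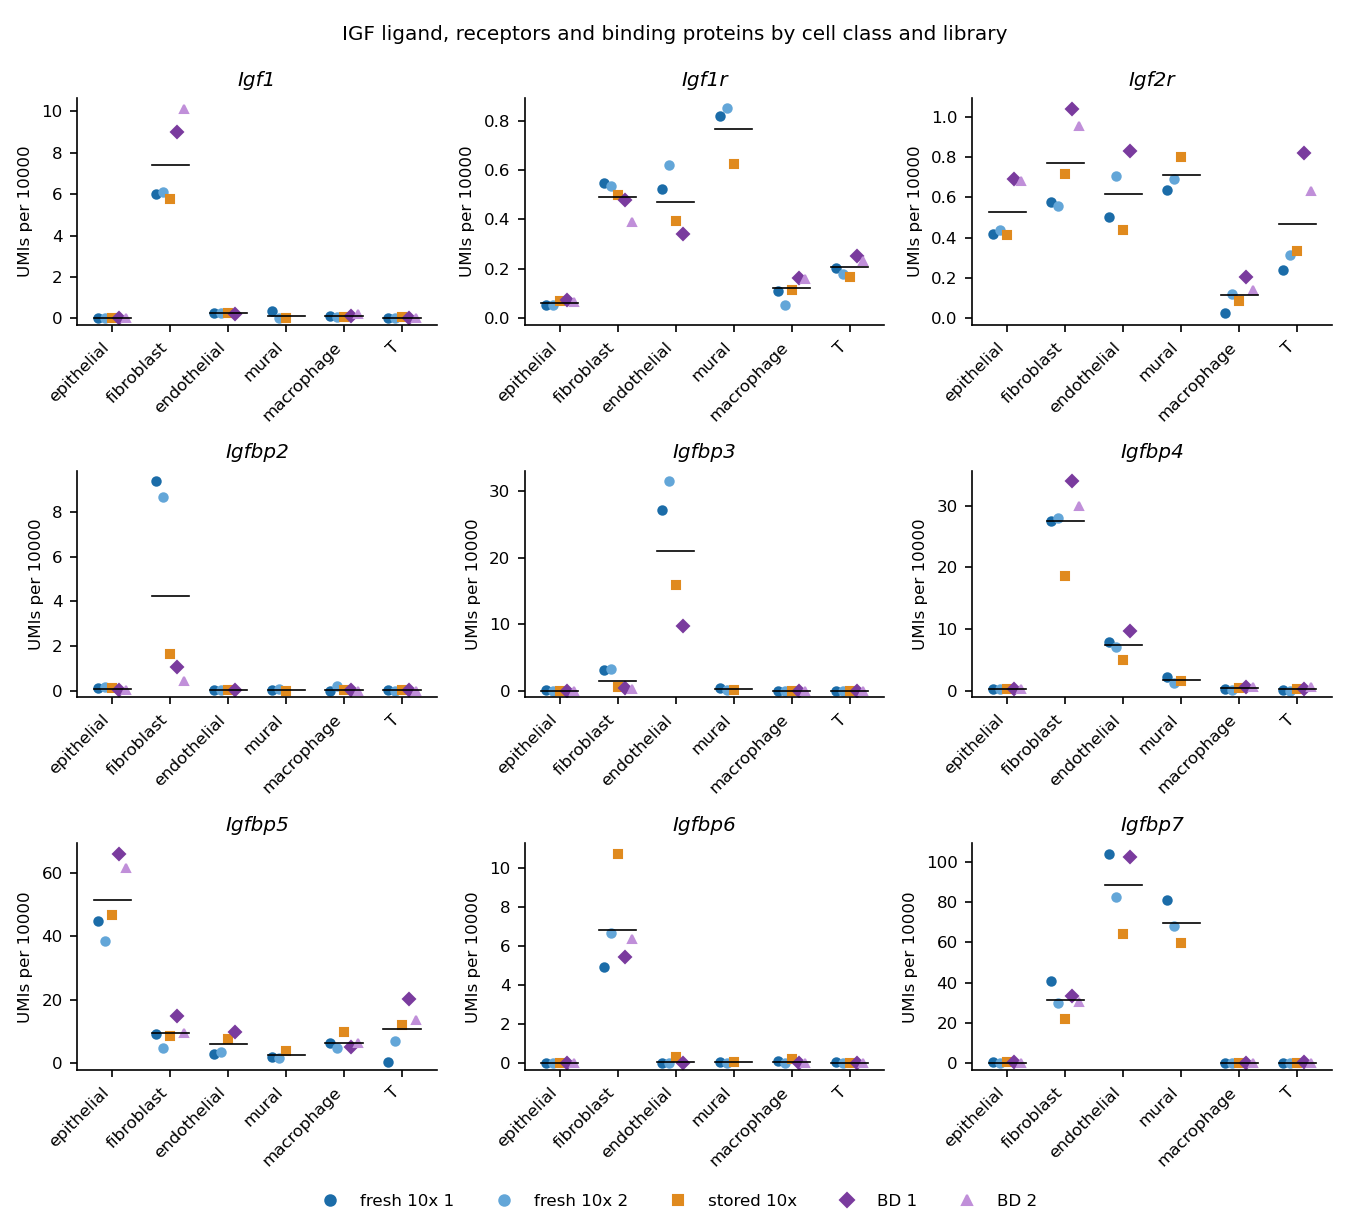
UMIs per 10000 of 9 IGF genes (vertical axes, linear, a scale of its own in each panel) in 6 cell classes (horizontal axis). Each symbol is the sum over the cells of 1 class in 1 library and each bar the mean over libraries. Igfbp5 is highest in epithelial cells, Igf1, Igfbp2, Igfbp4 and Igfbp6 in fibroblasts, and Igfbp3 and Igfbp7 in endothelial cells, with mural cells beside them for Igfbp7.

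Counted by class against the mean of the others, fibroblast-like cells were higher for 8 of 9 members and lower for 0, beside 30.6% and 24.9% of all genes. Endothelial-like cells were higher for 6 and lower for 0 (21.1% and 15.5% of all genes). Mural-like cells were higher for 3 and lower for 1 (13.8% and 7.52%). Epithelial-like cells were higher for 2, Igfbp5 and Igf2r, and lower for 5 (40.2% and 21.9%). Macrophage-like cells were lower for 4 and T-like cells for 5, with 0 higher in either class (for lower calls, 22.5% and 24.6% of all genes). All counts are by edgeR's quasi-likelihood test. Igfbp3 got no call in epithelial-like and macrophage-like cells, but its SEs there were 173 and 554, with 0 UMIs in T-like cells. The lack of a call is thus uninformative for Igfbp3 in these classes. Its epithelial-like level was 0.114% to 0.343% of the endothelial-like one.

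Because Igfbp5 is so abundant in the tumour cells, its level elsewhere was set beside 10 epithelial marker genes, which the other classes should lack. In fibroblast-like cells Igfbp5 was at 9.27, 5.0, 8.61, 14.9 and 9.47 UMIs per 10000. That is 13.0% to 22.6% of the epithelial-like level, while the median epithelial marker was at 1.66% to 10.1%. Igfbp5 lay above every one of the 10 markers in 5 of 5 libraries.

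The other classes lay closer to the markers. T-like cells had Igfbp5 at 0.578, 7.04, 12, 20.2 and 13.8, which is 0.522 to 1.90 times the median marker, and above every marker in 0 of 5 libraries. The highest marker there stood at 64.8% to 117% of its own epithelial-like level, against 1.29% to 30.6% for Igfbp5. T-like cells thus did not lack every marker, and the count of 0 says nothing about leaked RNA. Macrophage-like cells stood at 0.662 to 1.89 times the median marker and above all of them in 0 of 5. Endothelial-like cells stood at 1.07 to 4.53 times the median marker and exceeded all markers in 1 of 4 libraries, fresh 10x 1, and mural-like cells stood at 1.16 to 1.6 times and exceeded all in 0 of 3. The pooled neutrophil-like cells gave 557 Igfbp5 UMIs in 18 of 41 cells, or 34.6 UMIs per 10000. In macrophage-like cells the 5% of cells with most Igfbp5 held 71.5% to 91.7% of it, against 20.8% to 29.1% among epithelial-like cells and 40.74% to 60.03% among fibroblast-like cells. The median fibroblast-like cell had 1.15 to 2.11 UMIs per 10000, against 34.5 to 59.5 for the median epithelial-like cell. Leaked RNA and the classes' own Igfbp5 were not told apart outside the epithelial-like cells. That holds for fibroblast-like cells too, since Igfbp5 and the markers were compared there as sums and not cell by cell.

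**Figure D2:**
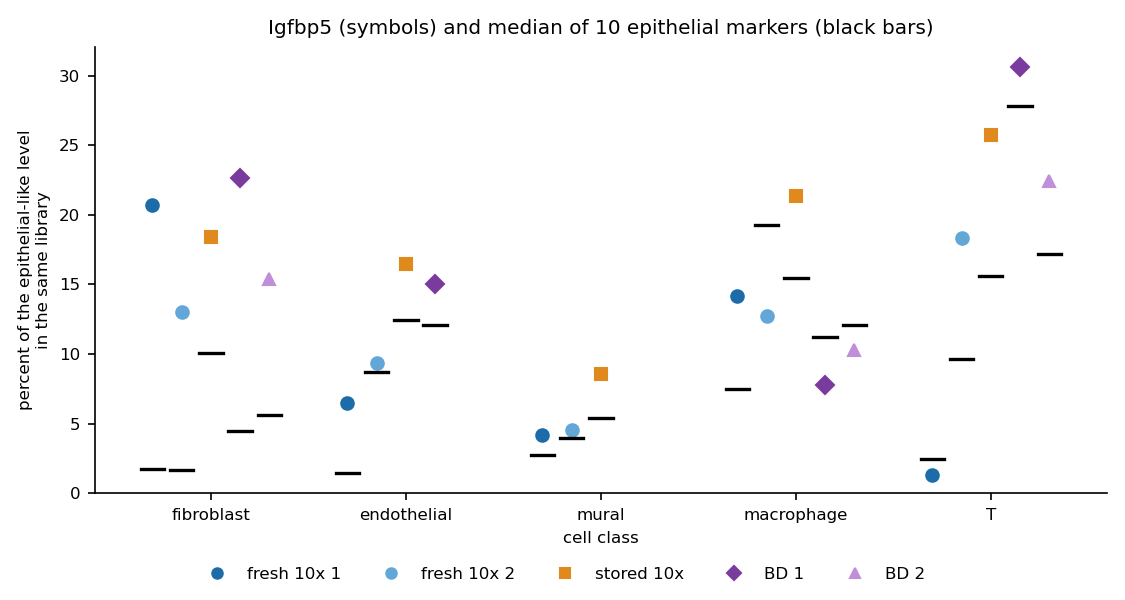
Igfbp5 in 5 non-epithelial classes as a percent of the epithelial-like level in the same library (vertical axis, linear). Symbols are Igfbp5 and black bars the median of 10 epithelial marker genes in the same sum. Fibroblast symbols lie at 13.0% to 22.6%, above their bars at 1.66% to 10.1%, while symbols and bars lie closer together in macrophage and T cells.

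The second question was how the members vary within the tumour epithelium. Across epithelial-like cells with at least 2000 UMIs, Igfbp5 had a median of 34.5 to 59.5 UMIs per 10000 per library. The 10th percentile was 2.92 to 6.80 and the 90th 103 to 189, and single cells reached 966 to 1289 UMIs. Its coefficient of variation beyond counting noise was 0.779 to 0.987, and 0.842% to 2.42% of cells had no Igfbp5 UMI. Igf1r was the opposite, with 90.6% to 93.2% of cells without a UMI. Igf2r was missing from 47.5% to 57.7% of cells, with a coefficient of variation of 0.517 to 0.811.

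Epithelial-like cells were clustered again without the members, and 14 sub-clusters (E0 to E13) with at least 20 cells in a library gave 68 sums. All 8 members with enough counts differed among sub-clusters, as did 91.2% of 11938 genes tested (edgeR's quasi-likelihood test), so again size and order carry the description. A 15th sub-cluster of 46 cells, led by Ptn and Gpx3, was not fitted.

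By mean level, Igfbp5 was highest in E0, led by Spp1 and Fosb, and in E3, led by Npy and Fcgbp. E0 held 71.7, 75.1, 84.4, 127 and 139 UMIs per 10000 and E3 71.7, 82.5, 93.0, 112 and 112. In fresh 10x 1, E4 stood above both at 81.6. E0 and E3 overlapped and differed by 0.01 ± 0.14 (log2, adjusted p = 1.00, edgeR's quasi-likelihood test), beside 15.9% of genes that passed for their highest against their next sub-cluster. Each was above the mean of the other sub-clusters, by 1.25 ± 0.09 and 1.26 ± 0.09 on the log2 scale (adjusted p = 1.38e-16 and 4.18e-16, same test).

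The 2 cycling sub-clusters were at the bottom for Igfbp5. E12, led by Top2a and Mki67, held 16.0, 13.9, 18.5, 21.1 and 19.2, and E8, with the mitotic genes Ccnb2 and Pttg1 among its leading 10, held 13.1, 18.4, 15.8, 21.9 and 24.7. Neither overlapped E0 or E3 in any library. Against the mean of the other sub-clusters the log2 differences were -1.46 ± 0.12 for E12 and -1.36 ± 0.12 for E8 (adjusted p = 6.03e-16 and 3.73e-14, edgeR's quasi-likelihood test). These cells were also the deepest, with median UMIs of 25590 in E12 and 21890 in E8 against 6342 in E3, and the part of depth in this order was not tested. E10 was low too, with a log2 difference of -1.27 ± 0.16 (adjusted p = 6.35e-08), but its 135 cells had a median of 1713 UMIs and were led by Hbb-bs and Col3a1, genes of red cells and fibroblasts.

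In the basal sub-cluster E1 (520 cells led by Krt5 and Krt14, keratins of the myoepithelium) 7 of 8 members were higher than the mean of the other sub-clusters and 0 lower, beside 21.7% and 18.0% of all genes. Igf2r was the exception. For Igfbp5 the log2 difference was only 0.26 ± 0.10 (adjusted p = 0.0357, edgeR's quasi-likelihood test). By mean level of Igfbp5, E1 ranked 7 among the sub-clusters, at 55.8 UMIs per 10000 against 99.5 in E0. Igfbp3 in E1 was at 0.752, 0.346, 0.396, 0.254 and 0.196 UMIs per 10000, while the others held 0 to 0.209. The log2 difference was 4.56 ± 0.26 (adjusted p = 1.94e-24, edgeR's quasi-likelihood test), and E1 was the highest sub-cluster in 5 of 5 libraries.

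Igfbp7 in E1 was at 3.04, 1.38, 2.24, 1.92 and 1.38, a log2 difference of 2.44 ± 0.14 (adjusted p = 2.78e-21, edgeR's quasi-likelihood test). Igfbp2 was at 0.625, 0.658 and 0.582 in the 10x libraries and at 0.0818 and 0.0327 in BD 1 and BD 2, with no overlap between platforms. E1 led in the 3 10x libraries only: E6 was higher in BD 1 (0.154), and 6 sub-clusters were higher in BD 2, with E5 at 0.159. Its log2 difference over all libraries was 2.42 ± 0.34 (adjusted p = 4.21e-08). Igfbp4 followed with 1.29 ± 0.22 (adjusted p = 2.17e-06) and Igf1r with 1.36 ± 0.26 (adjusted p = 1.18e-05). Igf1 passed as well, with 2.27 ± 0.57 (adjusted p = 7.58e-04), but on 28 UMIs in all.

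The 10 leading genes of E1 include Sparc, Postn and Acta2, which stromal cells also express, so the 7 fibroblast, 7 endothelial and 7 mural markers were read in E1 as a comparison added after seeing the data. Their summed levels there were 1.29 to 2.85, 0.0164 to 0.104 and 0.138 to 0.687 UMIs per 10000. These lay within the 0.483 to 5.85, 0 to 0.258 and 0 to 0.913 of the other sub-clusters, which include E10. The medians of the other sub-clusters were 1.14, 0.0664 and 0.361. Every fibroblast sum in E1 lay above its median, while the endothelial and mural sums lay on both sides. E1 had the highest sum in 1 of 5 libraries for fibroblast, 1 of 5 for endothelial and 0 of 5 for mural markers. The median fibroblast marker in E1 was at 0.178% to 0.374% of its fibroblast-like level. Igfbp3 in E1 was at 10.35% to 74.1% of its own fibroblast-like level, Igfbp2 at 6.67% to 35.4%, Igfbp7 at 4.57% to 10.2%, Igfbp4 at 1.40% to 3.51% and Igf1 at 0.182% to 1.3%. Igf1r was at 16.3% to 52.9%. The single highest marker reached 3.96% (Dcn in fresh 10x 2), above Igfbp4 (1.40%) and Igf1 (0.568%) in that library. In the other libraries the highest marker was at 0.344% to 1.61%, and Igfbp4 was above it in each, at 2.29% to 3.51%. Igf1 was above the highest marker in BD 2 only (0.860% against 0.607%).

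E6, 791 cells led by Aldh1a3 and S100a6, was the other sub-cluster with many members up. There 5 of 8 were higher and 0 lower, beside 23.1% and 18.0% of all genes. Igf1r was at 0.256, 0.119, 0.182, 0.173 and 0.185, a log2 difference of 1.75 ± 0.20 (adjusted p = 6.58e-12, edgeR's quasi-likelihood test). E6 and E1 overlapped for Igf1r and differed by 0.36 ± 0.27 (adjusted p = 0.541). Igfbp7 in E6 was at 1.99, 0.698, 1.62, 1.27 and 1.26, with a log2 difference of 1.85 ± 0.13 (adjusted p = 5.04e-17), and E1 exceeded E6 by 0.55 ± 0.18 (adjusted p = 0.0277).

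Igf2r differed little among the epithelial sub-clusters outside E10, where it was low on 5 UMIs in all (log2 difference -1.70 ± 0.49, adjusted p = 0.0164, edgeR's quasi-likelihood test). It was higher in E9, led by Scgb1b27 and Prh1, by 0.52 ± 0.09 on the log2 scale (adjusted p = 2.61e-06), and in E4, led by Ltf and Slc5a8, by 0.48. The 2 did not differ from each other past the threshold (0.04, adjusted p = 1.00). For the other sub-clusters, members higher and lower of 8 were counted beside the shares of all genes (edgeR's quasi-likelihood test). E0 had 3 higher, Igfbp5, Igfbp7 and Igf1r, and 0 lower (24.9% and 16.6%). E3 had 2 higher, Igfbp5 and Igfbp7, and 0 lower (19.5% and 13.2%). E11, led by Cartpt and interferon-response genes, had 4 higher, Igf1, Igf2r, Igfbp5 and Igfbp7, and 0 lower (17.3% and 7.02%). The Igf1 differences within the epithelium lie at levels where leaked RNA could not be told apart. In E4, Igf2r and Igfbp5 were higher and Igfbp2, Igfbp4 and Igfbp7 lower (13.8% and 10.1%), and in E2, Igfbp5 was higher and Igfbp2, Igfbp3 and Igfbp4 lower (21.3% and 12.3%).

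In the remaining sub-clusters members were lower at least as often as higher. In E9, Igf2r was higher and Igf1r, Igfbp5 and Igfbp7 lower (18.8% and 11%), and in E13, Igf1r was higher and Igfbp4 and Igfbp5 lower (16.5% and 11%). The milk-protein sub-cluster E5, led by Csn2 and Csn1s2a, had 0 higher and only Igf1r lower (19.7% and 10.5%). E7, led by Dcpp1 and Dcpp2, and the cycling E8 each had 0 higher and both Igfbp5 and Igfbp7 lower (14.6% and 6.94% for E7, 25.4% and 13.0% for E8). E10 had 0 higher and Igf2r and Igfbp5 lower (2.37% and 6.72%). In the cycling E12, Igfbp2, Igfbp3 and Igfbp4 were higher and Igf2r, Igfbp5 and Igfbp7 lower (34.9% and 24.4%). The Igfbp3 call rests on low and uneven levels, 0.00818 to 0.199 UMIs per 10000 over libraries with a median of 0.0207. Its mean in E12 was below those in E10 and E13. The E12 level was 1.17 ± 0.28 higher for Igfbp2 and 0.49 higher for Igfbp4 on the log2 scale, and for Igfbp7 in E8 the difference was -1.69 ± 0.21.

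**Figure D3:**
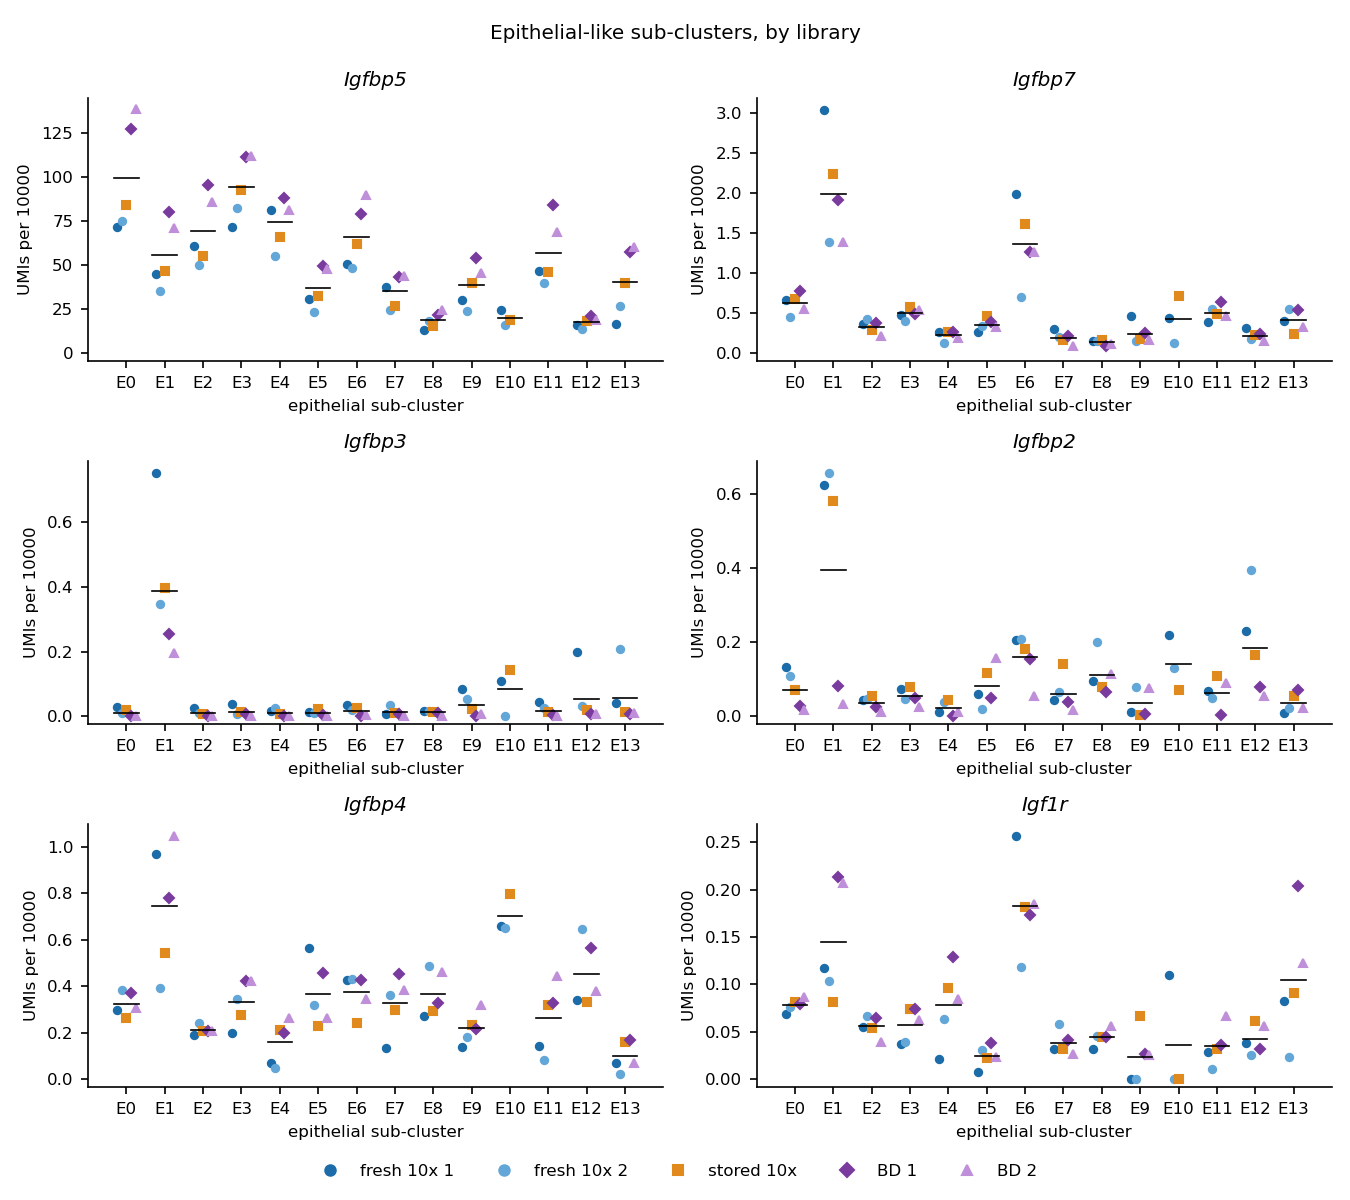
UMIs per 10000 (vertical axes, linear, a scale of its own in each panel) of 6 IGF genes in epithelial-like sub-clusters E0 to E13 (horizontal axes). Each symbol is 1 library's sum and each bar the mean over libraries. Igfbp5 is highest in E0 and E3 and lowest in E8, E10 and E12, the means of Igfbp2, Igfbp3, Igfbp4 and Igfbp7 are highest in the basal sub-cluster E1 (for Igfbp2 through the 10x libraries, for Igfbp4 with E10 beside it), and that of Igf1r in E6 and E1.

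The fibroblast-like class was made of 2 clusters, which differed in 4 of the 6 binding proteins. Cluster 14 was led by Clec3b, Efemp1 and Dpt, and cluster 15 by Spon1, Thbs4 and Lrrc15, with Igfbp2 itself, which took no part in the clustering, among the 10 leading genes. Cluster 15 was compared with cluster 14 in 5 library pairs, and 24.5% of 9343 genes differed (edgeR's quasi-likelihood test, a comparison chosen after seeing the data). Of 9 members tested, 3 were higher in cluster 15 (Igfbp2, Igfbp3, Igfbp7) and 1 lower (Igfbp6).

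Igfbp2 in cluster 15 was at 11.1, 13.0, 5.64, 3.89 and 1.80 UMIs per 10000, and in cluster 14 at 1.45, 0.0770, 0.0184, 0.0404 and 0.0413. The lowest value of cluster 15 was above the highest of cluster 14, and the log2 difference was 5.54 ± 0.52 (adjusted p = 3.42e-06, edgeR's quasi-likelihood test). Igfbp3 went the same way, at 3.72, 4.97, 1.37, 1.33 and 0.789 against 0.555, 0.139, 0.243, 0.137 and 0.12, a log2 difference of 3.13 ± 0.24 (adjusted p = 4.80e-07).

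Igfbp6 was the reverse. It was at 3.97, 3.65, 7.26, 3.48 and 3.64 in cluster 15 and at 9.31, 12.6, 12.1, 6.19 and 7.11 in cluster 14, lower in cluster 15 in each of the 5 pairs (log2 difference -1.11 ± 0.13, adjusted p = 3.95e-05, edgeR's quasi-likelihood test). Igfbp7 was higher in cluster 15 by 0.43 ± 0.11 (adjusted p = 0.00947), a call that held in the 10x libraries alone (0.59, adjusted p = 0.00229) and not in the BD pair alone (0.18, adjusted p = 0.0979).

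Igf1 did not separate the clusters over all libraries (log2 difference -0.23 ± 0.16, adjusted p = 0.329, edgeR's quasi-likelihood test). In the 10x libraries alone it was lower in cluster 15 (-0.56, adjusted p = 0.0331), and in the BD pair alone it was 0.22 (adjusted p = 0.158). Igfbp5 missed the threshold as well (0.83 ± 0.30, adjusted p = 0.0615) but passed in the 10x libraries alone (1.23, adjusted p = 0.0353). Igfbp4 passed in the BD pair alone (0.20, adjusted p = 0.0353). Cluster 15 made up 82.0%, 65.8%, 26.2%, 29.0% and 23.6% of fibroblast-like cells, in the library order above.

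**Figure D4:**
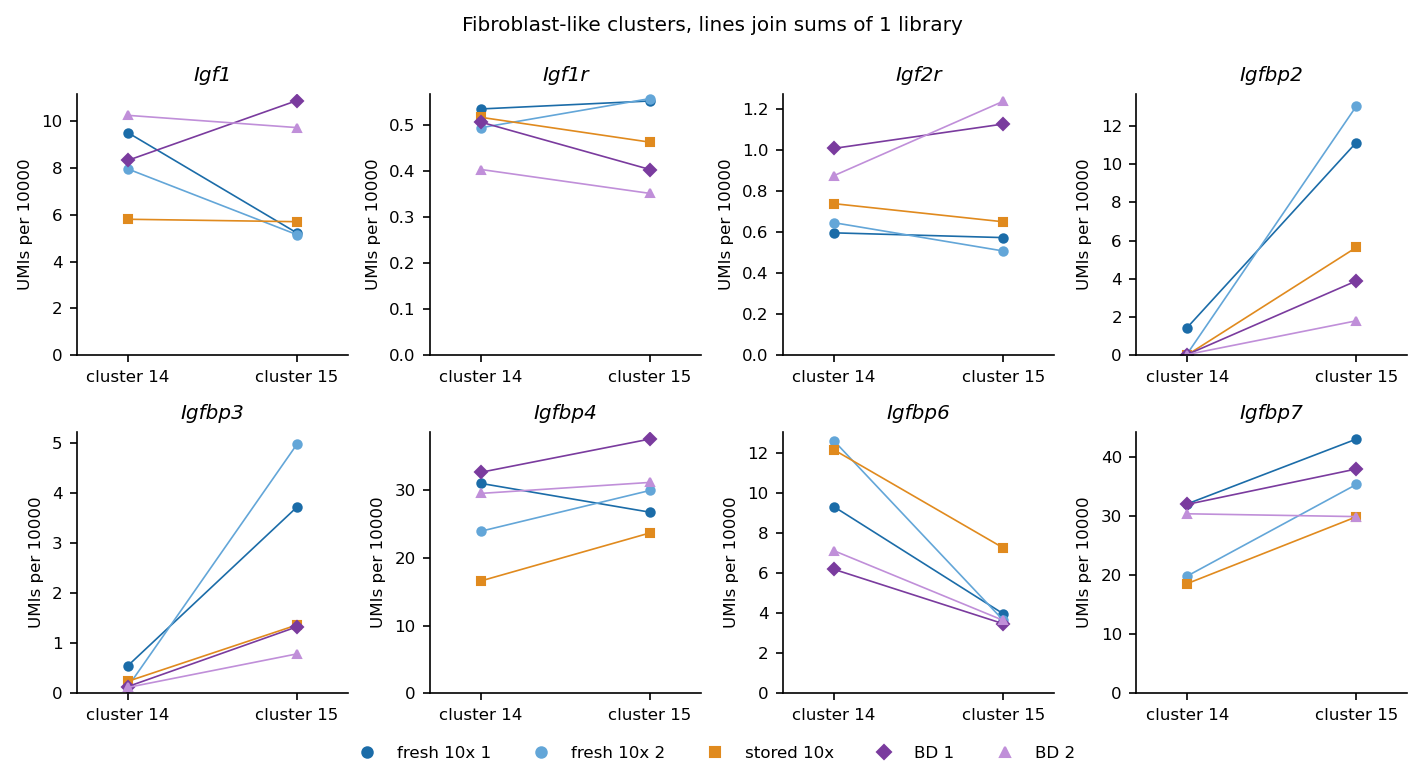
UMIs per 10000 (vertical axes, linear from 0) of 8 IGF genes in fibroblast-like clusters 14 and 15 (horizontal axes). Each line joins the 2 sums of 1 library. Igfbp2 and Igfbp3 rise from cluster 14 to cluster 15 and Igfbp6 falls in all 5 libraries, while lines of Igf1, Igf1r and Igf2r cross.

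The genes most like each member, by Pearson correlation of log2(CPM + 1), are given as a description. The 27 class sums share libraries and depth. Igfbp7 went with Col4a1 (r = 0.984), a chain of basement membrane collagen, and with Fam13c (0.9755) and Meox2 (0.973). Igfbp4 went with Dpysl3 (0.974), Oaf (0.962) and Adamtsl1 (0.958), and Igfbp3 with the water channel Aqp1 (0.946), Meox1 (0.938) and the ephrin Efnb2 (0.937). Igf1 went with Pcdh7 (0.945), Nov (0.915) and Cthrc1 (0.912), Igfbp6 with Efemp1 (0.939), Fndc1 (0.937) and Wnt2 (0.935), and Igfbp2 with Kcnk2 (0.904), Kcnma1 (0.896) and Txndc5 (0.894). Igfbp5 went with Rab4a (0.929), Rab3d (0.916) and the vitamin D receptor Vdr (0.916). The receptors went with Il3ra (0.926), Tprgl (0.924) and Id3 (0.922) for Igf1r, and with Tnks1bp1 (0.902), Ppm1a (0.899) and Trib2 (0.875) for Igf2r.

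Over the 68 epithelial sums, centred within each library, other genes led. Igfbp5 went with Itm2b (r = 0.906), the transcription factor Runx1 (0.869) and Prkca (0.856). Igfbp3 went with Fst (0.847), which encodes the activin inhibitor follistatin, Sostdc1 (0.820) and Col17a1 (0.810), and Igfbp7 with Crim1 (0.817), Pdgfa (0.805) and Fbln7 (0.804). Igf1r went with the membrane protease Mmp14 (0.784), Pde7a (0.773) and Tanc2 (0.763), and Igf2r with Kif1b (0.793), Ptprg (0.774) and Clcn4 (0.769). Igfbp4 went with Cotl1 (0.813), Car2 (0.729) and Cdc42 (0.693), Igfbp2 with S100a10 (0.714) and Fam83a (0.651), and Igf1 with Chst11 (0.657), Lrp1 (0.639) and Tppp3 (0.629).

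The 36 other genes of the pathway form 3 lists: 10 extracellular regulators of IGF access, 18 genes of receptor signalling, and 8 genes of imprinting and mRNA binding. Of these, 28 had enough counts and all 28 differed between classes, beside 92.0% of all genes. In fibroblast-like cells 4 of 6 tested extracellular regulators were higher and 0 lower, beside 30.6% and 24.9% of all genes, with a median log2 difference of 2.82 against -0.03 over all genes. Htra3, a serine protease of the same family as an IGFBP protease, was the largest of these, at 1.66, 1.73, 4.61, 9.14 and 5.28 UMIs per 10000, with the fresh 10x pair lowest (5.02 ± 0.20, adjusted p = 4.80e-15, edgeR's quasi-likelihood test).

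Stc1 encodes a stanniocalcin, an inhibitor of the PAPP-A proteases that cleave IGFBPs. It was highest in endothelial-like cells, at 1.66, 1.83, 1.6 and 1.85, and 6.18 ± 0.25 above the mean of the other classes on the log2 scale (adjusted p = 2.48e-17, edgeR's quasi-likelihood test). Mural-like cells were above the mean as well (3.40 ± 0.64, adjusted p = 1.62e-04). The insulin receptor Insr was highest there too, at 3.64, 2.99, 2.29 and 1.79 (4.51 ± 0.16, adjusted p = 6.56e-20). Over the 17 tested genes of receptor signalling, endothelial-like cells were higher for 7 and lower for 6 (21.1% and 15.5% of all genes), fibroblast-like cells higher for 8 and lower for 3 (30.6% and 24.9%), and epithelial-like cells higher for 6 and lower for 6 (40.2% and 21.9%). The adaptor Grb10, which dampens receptor signalling, was low in macrophage-like cells (-3.59 ± 0.38, adjusted p = 8.45e-09), the class with least Igf2r.

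In the imprinting and mRNA-binding list, 4 of 5 tested genes were higher in fibroblast-like cells and 0 lower (median 3.59), beside 30.6% and 24.9% of all genes. Dlk1, a paternally expressed membrane protein, was instead a mural-like gene, at 1.12, 2.84 and 1.07 (8.16 ± 0.47, adjusted p = 5.75e-14, edgeR's quasi-likelihood test). Within the epithelium all 29 genes tested differed, beside 91.2% of all genes. H19 (7.06 ± 0.36, adjusted p = 4.33e-23) and the IGFBP protease Htra1 (4.76 ± 0.30, adjusted p = 2.27e-24) were higher in the basal sub-cluster E1, where Igfbp3 was also highest. H19 in E1 varied widely, at 0.283, 0, 0.431, 3.41 and 1.32 UMIs per 10000, with no UMI in fresh 10x 2. Socs2, a feedback inhibitor of growth hormone signalling, was higher in E9 (2.02 ± 0.12, adjusted p = 1.85e-20). Mest was higher in E13, led by Smr2 and Wif1 (4.80 ± 0.68, adjusted p = 4.15e-07).

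The last questions were whether the members differed with the platform and with overnight storage. Both comparisons use the same 2 fresh 10x libraries as controls, so they are not independent. BD 1 and stored 10x are 1 library each and were assumed to vary like the fresh pair, which leaves 1 residual degree of freedom. For BD 1, the platform and the tumour digested cannot be told apart. In sums over whole libraries, fewer cells of a type and less RNA per cell cannot be told apart, so values within classes follow each.

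Between BD 1 and fresh 10x, 5 of 9 members passed over whole libraries, 3 higher and 2 lower, beside 41.6% of all genes, 21.2% higher and 20.4% lower (edgeR's quasi-likelihood test). Igfbp3 was at 1.66 and 1.27 UMIs per 10000 in fresh 10x and 0.137 in BD 1, a log2 difference of -3.57 ± 0.22 (adjusted p = 9.17e-04). Igfbp2 was at 0.95 and 0.712 against 0.166 (-2.47 ± 0.22, adjusted p = 0.00164). Both were far lower in BD 1, while Igf1 was higher, at 0.569 and 0.408 against 1.04 (0.94 ± 0.21, adjusted p = 0.0189). Igf2r was higher at 0.701 against 0.435 and 0.447 (0.52 ± 0.10, adjusted p = 0.0142), and Igfbp6 by 0.35 ± 0.11 (adjusted p = 0.0490), calls that were both lost with DESeq2 (adjusted p = 0.0668 and 0.260).

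Within classes, 3 of 9 members passed in epithelial-like and 3 of 9 in fibroblast-like cells, beside 43.6% and 32.7% of all genes, and they were the same 3. Igf2r was higher in BD 1, by 0.54 ± 0.11 in epithelial-like cells (adjusted p = 0.00450, edgeR's quasi-likelihood test) and 0.75 ± 0.13 in fibroblast-like cells (adjusted p = 0.0199). Igfbp2 was lower, with log2 differences of -1.63 ± 0.22 (adjusted p = 6.95e-04) and -3.20 ± 0.17 (adjusted p = 0.00667). Igfbp3 was lower as well, with -2.67 ± 0.57 (adjusted p = 0.00640) and -2.96 ± 0.16 (adjusted p = 0.00667). With DESeq2 the fibroblast-like Igf2r call was lost (adjusted p = 0.238).

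In endothelial-like cells 2 of 8 members passed, beside 15% of all genes. Igfbp3 was lower in BD 1 (-1.56 ± 0.16, adjusted p = 3.70e-04, edgeR's quasi-likelihood test) and Igfbp5 higher (1.65 ± 0.18, adjusted p = 4.53e-04). Endothelial Igfbp5 could not be told apart from leaked RNA above, and the 10 epithelial markers stood at 1.43% of their epithelial-like level in fresh 10x 1 and 12.1% in BD 1 by their median, with 8.71% in fresh 10x 2, and the part of this in the difference was not tested. With edgeR, 0 of 8 members passed in macrophage-like cells (1 at an unadjusted p under 0.05, beside 0.00% of genes called) and 0 of 4 in T-like cells (2 at an unadjusted p under 0.05, beside 7.46%). DESeq2 called 0 in both.

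Between stored 10x and fresh 10x the stored arm is 1 library, so storage and the tumour digested cannot be told apart. Over whole libraries 1 of 9 passed, beside 0.340% of all genes: Igfbp3, at 1.66 and 1.27 in fresh 10x and 0.262 in stored 10x (log2 difference -2.43 ± 0.21, adjusted p = 0.0335, edgeR's quasi-likelihood test). In fibroblast-like cells 2 of 9 passed, beside 0.728% of all genes. Igfbp2 fell from 9.38 and 8.66 to 1.64 (-2.46 ± 0.17) and Igfbp3 from 3.15 and 3.34 to 0.568 (-2.52 ± 0.16), both with adjusted p = 0.0377.

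In endothelial-like cells 2 of 8 passed for stored 10x, beside 0.885% of all genes. Igfbp3 was lower, at 15.9 against 27.1 and 31.5 (-0.85 ± 0.16, adjusted p = 0.0402, edgeR's quasi-likelihood test), a call lost with DESeq2 (adjusted p = 0.0648). Igfbp5 was higher, at 7.71 against 2.90 and 3.59 (1.28 ± 0.18, adjusted p = 0.00881), where the median epithelial marker was at 12.4% of its epithelial-like level in the stored library, and its part was not tested. With edgeR, 0 of 9 members passed in epithelial-like cells (1 at an unadjusted p under 0.05, beside 1.62% of genes called), 0 of 8 in macrophage-like cells (1, beside 0.00%) and 0 of 4 in T-like cells (0, beside 0.141%).

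The fibroblast-like differences in Igfbp2 and Igfbp3 moved together with the makeup of the class, since cluster 15, in which both were higher, made up 65.8% or more of fibroblast-like cells in fresh 10x and 29.0% or less elsewhere. The clusters were therefore fitted apart, an alternative added after seeing the data. Within cluster 15, BD 1 was still lower for Igfbp2 (-1.70 ± 0.15, adjusted p = 0.00326, edgeR's quasi-likelihood test) and for Igfbp3 (-1.76 ± 0.22, adjusted p = 0.00643), beside 26.0% of all genes called. Igf1 (1.01 ± 0.11, adjusted p = 0.00420) and Igf2r (0.98 ± 0.16, adjusted p = 0.0129) were higher there, the second lost with DESeq2 (adjusted p = 0.218). For stored 10x, 0 of 9 members passed in cluster 15 with edgeR (4 at an unadjusted p under 0.05, beside 0.473% called; 2 with DESeq2). Its Igfbp2 difference was -1.09 (adjusted p = 0.0623) and its Igfbp3 difference -1.66 (adjusted p = 0.0666).

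Within cluster 14, which held 35 and 41 cells in the fresh libraries, 4 of 9 members passed for BD 1 and 2 of 9 for storage, beside 22.3% and 1.90% of all genes. Igfbp2 was lower in BD 1, with a log2 difference of -4.33 ± 0.48 (adjusted p = 3.91e-17, edgeR's quasi-likelihood test), and in stored 10x, with -5.28 ± 0.58 (adjusted p = 1.05e-16). These rest on fresh 10x 1, whose level of 1.45 compares with 0.0770 in fresh 10x 2. Without fresh 10x 1 the differences were -0.96 and -1.73, values with no test, and with DESeq2 the adjusted p was 0.276 and 1.00. Igfbp5 was higher in cluster 14 in both comparisons, at 16.1 in BD 1 and 8.58 in stored 10x against 2.90 and 1.48 in fresh 10x (2.71 ± 0.25, adjusted p = 2.42e-25, and 1.97 ± 0.25, adjusted p = 1.29e-12). The median epithelial marker in cluster 14 was higher there too, at 5.26% of its epithelial-like level in BD 1 and 10.6% in stored 10x against 1.34% and 1.58% in fresh 10x, where Igfbp5 was at 24.4%, 18.4%, 6.48% and 3.85%, and the part of this in the difference was not tested. In BD 1, Igfbp6 was lower (-1.0 ± 0.25, adjusted p = 7.74e-04), and so was Igfbp3 (-1.43 ± 0.43, adjusted p = 0.00637), which without fresh 10x 1 was at -0.16 with no test.

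**Figure D5:**
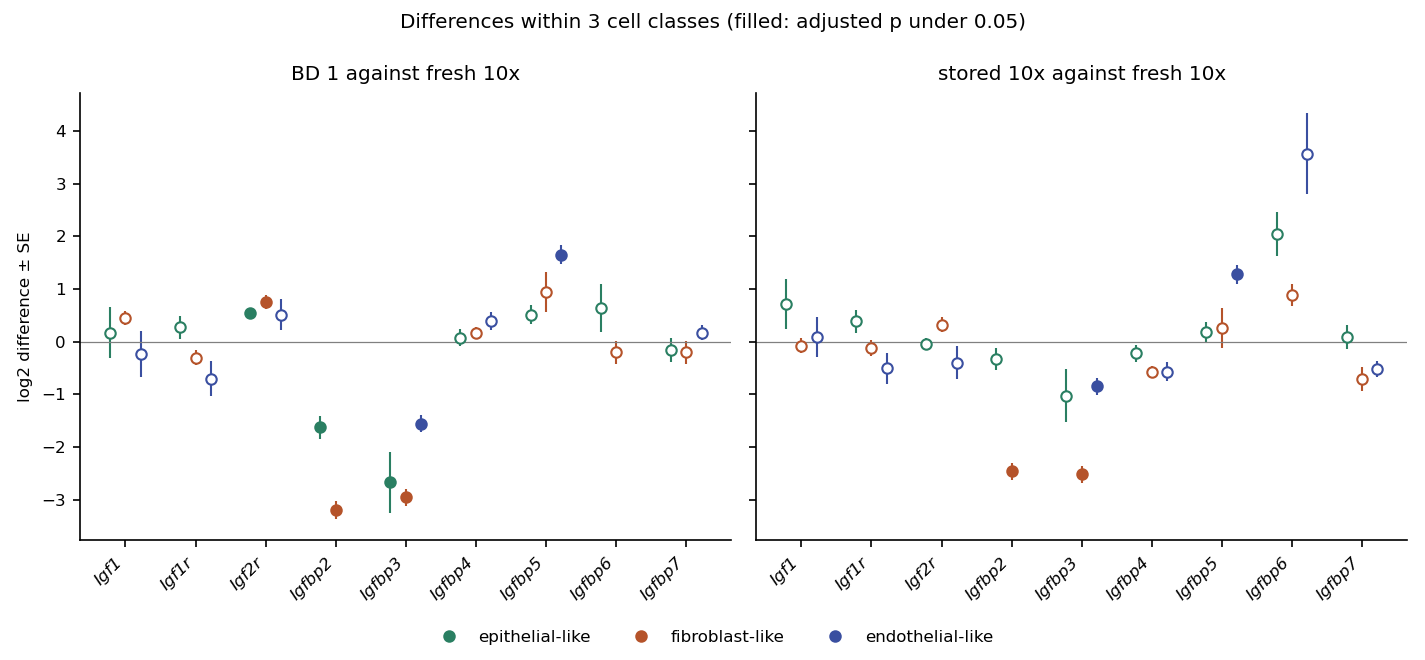
Log2 difference ± SE (vertical axis) of 9 IGF genes (horizontal axis) for BD 1 against fresh 10x (left) and stored 10x against fresh 10x (right) within epithelial-like, fibroblast-like and endothelial-like cells. Filled symbols have an adjusted p under 0.05, and endothelial Igfbp6 on the left is not drawn because its SE is above 2. Igfbp2 and Igfbp3 lie below 0 in fibroblasts in both panels, and the panels share their control libraries.

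Other pathway genes differed between BD 1 and fresh 10x as well. In epithelial-like cells 10 of 18 signalling genes were higher in BD 1 and 2 lower (median log2 difference 0.49 against 0.02 over all genes, beside 22.0% and 21.6% of all genes), with Akt2 at 1.54 ± 0.14 and Grb10 at 1.07 ± 0.15. In fibroblast-like cells the counts were 8 and 1 of 18 (15.5% and 17.2% of all genes), with Akt2 at 1.79. In stored 10x, 1 of the 18 was higher and 1 lower in epithelial-like cells, Socs2 (0.74) and Grb2 (-0.81). Htra3 was higher in the stored library in epithelial-like cells (1.26) and fibroblast-like cells (1.44).

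BD 2, whose labels conflict, is set beside BD 1 by value only. Its whole-library levels were lower for Igfbp3 (0.0399 against 0.137), Igfbp2 (0.0818 against 0.166), Igfbp4 (2.57 against 4.27) and Igfbp7 (2.75 against 5.08). Igfbp5 was 53.2 against 54.9, Igf2r 0.659 against 0.701 and Igf1 0.779 against 1.04. BD 2 held 13 endothelial-like cells where BD 1 held 45, and the part of this in the Igfbp3 and Igfbp7 values was not tested.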

How the data were processed

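The authors' deposited files hold whole-number counts, UMIs per gene and cell, for 5 libraries of PyMT mammary tumours. Cell Ranger 3.0.1 and build mm10 are named in the submitters' processing notes, without saying which platform they apply to, and how the BD libraries were counted is not given in the sources used here. Library totals ran from 29166129 to 59957945 UMIs. Exact intervals and floors of 3 counts cover counting error only.

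Cells with at least 200 genes were clustered in scanpy 1.11.5 with leidenalg 0.10.2 (2000 variable genes, 30 components, 15 neighbours, resolution 1.0), leaving out the 10 members and 36 pathway genes. Scrublet marked 21 cells of fresh 10x 1, which were removed. In the other libraries it marked under 0.5% of cells and none was removed. Clusters were named from marker lists and epithelial-like cells clustered again. UMIs were summed per library and class or sub-cluster (at least 20 cells) and tested with edgeR 4.0.16 (TMM factors, filterByExpr, quasi-likelihood fit, R 4.3.3). Benjamini-Hochberg adjustment was over all genes tested, with a threshold of 0.05. The robust option was used for class and sub-cluster fits, and not for platform, storage or fibroblast-like cluster fits. Class and sub-cluster fits had library as a block. Platform and storage fits used fresh 10x, stored 10x and BD 1 in 1 model. Fitting was tested on simulated counts. Shares of cells were taken after thinning to 2000 UMIs.

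The members and lists were chosen with earlier results of these data known. All members are named. The 3 genes most correlated with each member are named for class sums and, centred within libraries, for sub-cluster sums, leaving out predicted genes, and 1 of these genes is not reported here. Of each pathway list, the 2 genes with the largest difference past the threshold are named. Alternatives were RLE factors, no filter on low counts, DESeq2 1.42.0, a stricter cell filter (500 UMIs and at most 20% mitochondrial), other clustering resolutions, BD 2 grouped by its title, a replicate block, and leaving out each library. Fits of the 2 fibroblast-like clusters and fits of 10x libraries alone were added after seeing the data.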

Additional observations from a re-analysis of the deposited data

How the results depend on the processing

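For each tested member, the leading class against the other classes kept its direction and side of the threshold in all 126 refits. The joint test over epithelial sub-clusters kept its side of the threshold in all 111 refits. That test has no direction, so which sub-cluster led was not compared. The other class and sub-cluster calls were not compared across refits either. No platform or storage difference of a member that had passed changed direction, though some that had not passed changed sign. Counts of members called for platform and storage were less firm. Over whole libraries the storage count of 1 became 3 with RLE factors, 0 with no filter and 3 with DESeq2. In epithelial-like cells the platform count of 3 became 5 with the replicate block, and the storage count of 0 became 1 with RLE factors and 1 with no filter. In fibroblast-like cells the platform count of 3 became 5 with no filter, 5 with BD 2 grouped by title and 6 with the replicate block, and the storage count of 2 became 5 with no filter. In endothelial-like cells the storage count of 2 became 1 with RLE factors, 4 with no filter and 1 with DESeq2. In macrophage-like cells the platform count of 0 became 1 with RLE factors, no filter or the replicate block and 2 with BD 2 grouped by title. In T-like cells the platform count of 0 became 1 with RLE factors, no filter, the cell filter, BD 2 by title or the replicate block, and the storage count of 0 became 1 with RLE factors, no filter or the cell filter. The cause was not tested.

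Counts over all genes moved by more than 1.5 times as well. Storage over whole libraries called 56 genes, against 126 (RLE), 3 (no filter), 379 (DESeq2) and 34 (cell filter). Storage called 244 in epithelial-like cells against 401 (RLE), 438 (no filter) and 161 (DESeq2), 86 in fibroblast-like cells against 1705 (no filter), 231 (DESeq2) and 338 (cell filter), and 79 in endothelial-like cells against 310, 26 and 132. Platform called 6572 against 4007 with DESeq2 in epithelial-like cells, 3861 against 1527 with DESeq2 and 5889 with the replicate block in fibroblast-like cells, and 1343 against 221 with DESeq2 in endothelial-like cells. In macrophage-like cells the platform called 0 against 1789 (RLE), 1772 (no filter), 303 (DESeq2), 1368 (cell filter), 3189 (BD 2 by title) and 2797 (replicate block), and storage 0 against 76, 107, 13 and 26 under the first 4. In T-like cells storage called 9 against 74 (RLE), 69 (no filter) and 76 (cell filter), and the platform 475 against 1033, 947 and 1036 under the same 3, 167 (DESeq2), 1281 (BD 2 by title) and 1026 (replicate block). With DESeq2, the platform count fell from 2386 to 504 in fibroblast cluster 14 and from 2698 to 619 in cluster 15, and the storage count from 203 to 31 in cluster 14, while storage in cluster 15 rose from 49 to 409 (RLE) and 816 (no filter).

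The replicate numbers of fresh 10x and BD pair the libraries in name only. Deviations of same-numbered libraries correlated at 0.213 over whole libraries (13112 genes) and 0.0823 in epithelial-like cells, with 2 pairs, and the block used BD 2. At full depth instead of 2000 UMIs per cell, the median share of cells with a UMI in the leading class was 84.1% for Igf1, 26.5% for Igf1r, 52.4% for Igf2r, 89.1% for Igfbp4, 98.4% for Igfbp5 and 90.8% for Igfbp6. With 1 residual degree of freedom, the platform and storage calls rest on 2 fresh libraries and on a spread that edgeR shares across genes. They do not measure a gene's own gap between those libraries alone. In fibroblast cluster 14, Igfbp2 had an SE of 0.48 for BD 1, with fresh levels of 1.45 and 0.0770. Igf2 at 4 UMIs could not be placed in any class.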
